A study of Mus musculus with 8 samples.

Results

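The 34 genes described here are interferon-stimulated genes and genes of MHC class I antigen presentation, taken as a fixed list of symbols and looked up in the gene tables of the series by Ensembl identifier. All 34 were found among the 57180 genes of the tables. They cover 5 RNA and DNA sensors, 4 transcription factors, 2 genes of the ISG15 modifier system, 11 antiviral effectors, 3 genes of ADP-ribosylation, 3 guanylate-binding proteins and 6 genes of class I presentation. RNA was sequenced from freshly isolated mouse muscle stem cells, which repair the muscle fibres they lie on, purified by flow cytometry. The control group held 4 libraries (replicates 2, 5, 7 and 8), labelled as wild type. The other group held 4 libraries (replicates 5, 6, 7 and 8), titled RhoA het and given a RhoA knockdown genotype in the labels; the design text describes the mice as carrying one floxed RhoA allele in the stem cells, SC-RhoAfl/+. RhoA is a small GTPase that controls the actin cytoskeleton. The Cre driver, the age and sex of the mice, and whether animals were pooled are not given in the sources used here. The labels do not say that each library came from its own animal, so p-values measure the spread between these libraries, which may be technical.

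Interferons are secreted proteins that bind paired receptors on the cell surface and activate the JAK kinases. The type I and type III receptors lead to a transcription factor complex, with STAT2 and IRF9 among its subunits, that binds the interferon-stimulated response element (ISRE) in promoters, and the type II receptor leads to factors that bind the gamma-activated site (GAS). The target genes include sensors of foreign nucleic acid, antiviral effectors, and the proteasome subunits, peptide transporter and chains of the MHC class I complex, which shows peptides on the surface of nearly all nucleated cells.

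The promoters were read for the binding letters of both elements. RefSeq promoter windows on the GRCm38.p6 assembly, from 250 bases before to 50 bases after the start, were on hand for 27 of the 34 genes. Rtp4, Ifi27, Parp9, Usp18, Parp14, Dhx58 and Zbp1 had no entry. The core letters of the ISRE, GAAANNGAAA on either strand, occurred in 13 of the 27 genes (48.1%), against 3.99% of the 27025 genes of the table. The GAS letters, TTCNNNGAA, which read the same on both strands, occurred in 8 of the 27 (29.6%), against 9.55% of all genes. A total of 17 genes held at least 1 of the motifs, 4 held both and 10 held neither, and in Bst2 and Ifitm3 an ISRE match overlapped a GAS match. The stretches below show ISRE matches in the ISG15 gene, in IFIT genes, in all 3 guanylate-binding protein genes and in the light chain gene of MHC class I, and then GAS matches in the factor Irf1 and the immunoproteasome gene Psmb8. Capitals mark the motif, which appears as its complement (TTTCNNTTTC) where it lies on the other strand, and each stretch is written 5′ to 3′ on the strand of its gene.
Isg15 ISRE, chr4:156200860-156200911, minus strand: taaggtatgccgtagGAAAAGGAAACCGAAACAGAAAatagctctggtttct
Ifit1 ISRE, chr19:34640770-34640828, plus strand: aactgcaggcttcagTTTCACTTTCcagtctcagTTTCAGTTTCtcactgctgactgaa
Ifit3 ISRE, chr19:34583358-34583431, plus strand: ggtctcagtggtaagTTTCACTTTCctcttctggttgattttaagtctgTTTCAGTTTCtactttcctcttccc
Gbp2 ISRE, chr3:142620589-142620628, plus strand: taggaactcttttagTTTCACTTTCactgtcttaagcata
Gbp3 ISRE, chr3:142559984-142560029, plus strand: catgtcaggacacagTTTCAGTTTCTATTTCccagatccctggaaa
Gbp7 ISRE, chr3:142530268-142530307, plus strand: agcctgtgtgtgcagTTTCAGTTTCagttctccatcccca
B2m ISRE, chr2:122147533-122147572, plus strand: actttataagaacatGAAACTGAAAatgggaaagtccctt
Irf1 GAS, chr11:53769909-53769947, plus strand: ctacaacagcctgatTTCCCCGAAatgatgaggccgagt
Psmb8 GAS, chr17:34198083-34198121, plus strand: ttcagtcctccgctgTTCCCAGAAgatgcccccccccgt

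In Isg15 the capitals hold 3 overlapping ISRE matches, the first beginning 78 bases before the start. Ifit1 and Ifit3 each hold 2 separate matches, and Gbp3 holds 2 that overlap. The matches of the 3 guanylate-binding protein genes begin 59 (Gbp2), 45 (Gbp3) and 53 (Gbp7) bases before the start. A further gene pair shares its promoter: the windows of Psmb9 and Tap1, which are transcribed away from each other, have 275 bases in common, and neither motif occurs there. A match describes letters in the window and not a bound site.

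The libraries held 19138763 to 25606342 counts assigned to genes. Rhoa itself was listed at 7250, 6656, 7273 and 7102 counts in the controls and at 5379, 5706, 5649 and 5488 counts in the RhoA het libraries, and these counts did not overlap between the groups. In counts scaled to library size with TMM factors (CPM), where control replicate 7 (273 CPM) lay below RhoA het replicate 8 (282 CPM), its level was 325 ± 46.3 in the controls and 265 ± 14.5 in the RhoA het libraries (SD, n = 4 each). The fitted log2 difference was -0.29 ± 0.13 (SE; edgeR quasi-likelihood test, unadjusted p = 0.0495, Benjamini-Hochberg adjusted p = 0.9998). The muscle stem cell markers Pax7, Myf5 and Cdh15 were present in every library. Over the 8 stem cell markers examined, 4 fitted differences were above 0 and 4 below, with a median of -0.0010. Only Pax7 among them had an edgeR unadjusted p under 0.05. Pax7, the defining transcription factor of these cells, stood at 112 to 176 CPM in the controls and at 78.5 to 106 CPM in the RhoA het libraries with no overlap, a fitted log2 difference of -0.51 ± 0.18 (SE; edgeR unadjusted p = 0.0173, adjusted p = 0.9998); its part in the results below was not tested. Control replicate 2 and RhoA het replicate 6 stood apart from the rest: they held 14358 and 14659 counts of 4 Y-linked genes and 5 and 7 counts of Xist, while each of the other 6 held at most 2 Y-linked counts and at least 3539 of Xist. Results are therefore also given without RhoA het replicate 6, and in a paired fit that uses neither library.

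In TPM, which divides counts by gene length and scales each library to the same total, the muscle stem cells held class I presentation genes and 1 antiviral membrane protein among their abundant transcripts. Ifitm3, which blocks the entry of viruses at membranes, averaged 3599 TPM over the 8 libraries and ranked 31st among all genes. B2m, the light chain of MHC class I, followed at 2543 TPM, and the class I heavy chains H2-D1 and H2-K1 at 1725 and 758 TPM. These 4 genes supplied 86.5% to 91.2% of the summed TPM of the 34 genes in each library, and the 34 together took 0.789% to 1.19% of a library's TPM. Ifi27 (323 TPM), Gbp2 (169 TPM) and Irf1 (152 TPM, from 98.2 to 224) completed the 7 genes above 100 TPM. A group of 15 genes lay between 10 and 100 TPM, led by Isg15, and 12 lay below 10 TPM, down to the RNA helicase Dhx58 at 1.49 TPM. All 34 passed the filter on low counts, and 27 had at least 100 counts in every library; the lowest count was 16, for Dhx58.

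**Figure D1:**
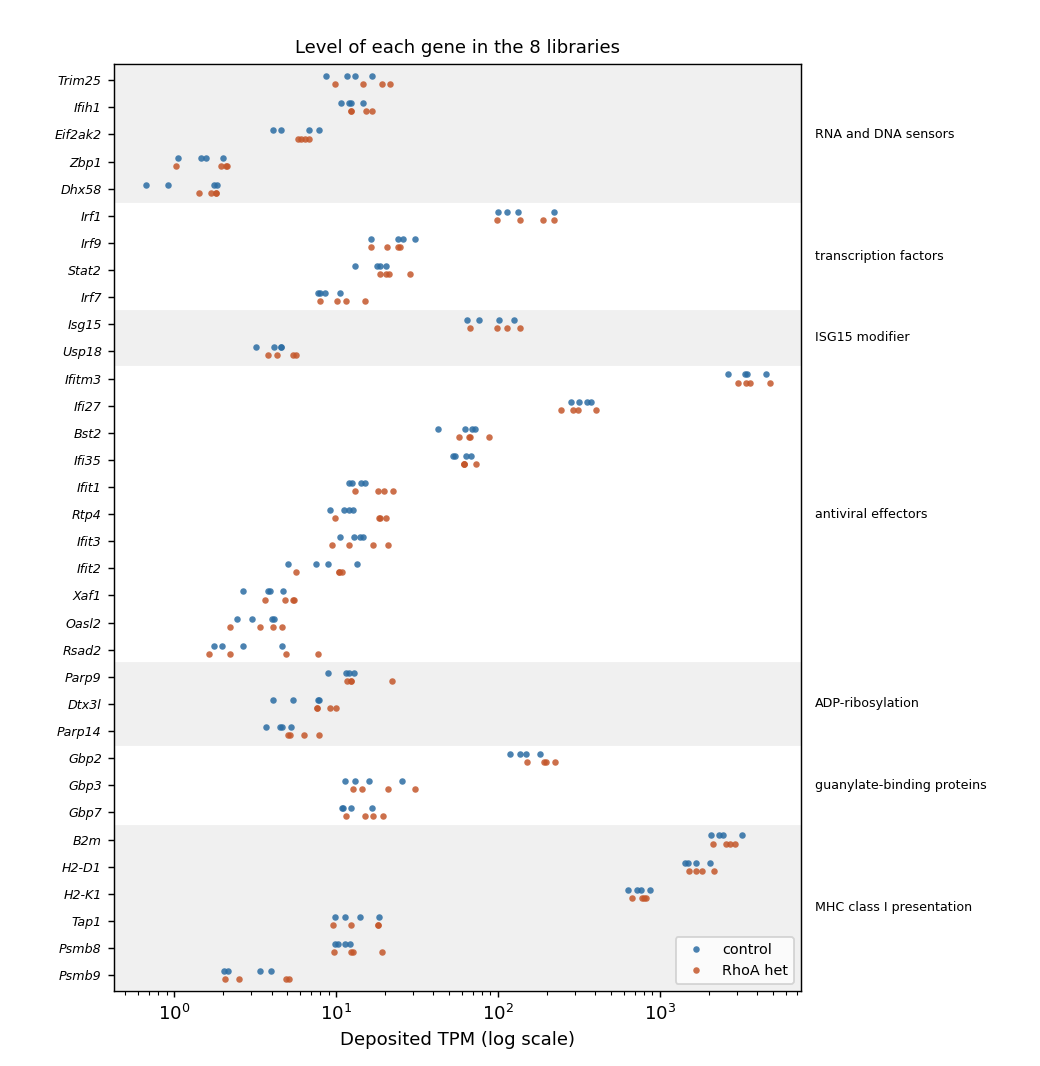
Deposited TPM (log axis) of the 34 genes, grouped by role, with 1 point per library (blue, control; orange, RhoA het). Ifitm3, B2m, H2-D1 and H2-K1 lie far to the right, and the orange and blue points of every gene overlap.

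The comparison of RhoA het with control libraries asks whether these genes differ between the genotypes; the activity of the RhoA protein is not in these data. No gene of the 34 passed the test: all had an edgeR adjusted p of 0.9998, and 0% of the 15660 genes tested were called. None had an unadjusted p under 0.05 in the edgeR test, against 2.38% of all genes, and DESeq2 also called 0 of the 34. None separated the groups without overlap in CPM, against 1.81% of all genes. The fitted difference was above 0 for 28 genes (82.4%, against 49.9% of all genes) and below 0 for 6. The median log2 fold change was 0.13 against -0.00071 for all genes tested, and the values ranged from -0.30 (Irf9) to 0.57 (Rsad2). Without RhoA het replicate 6 the split was 19 above to 15 below and the median 0.0109. With control replicate 2 left out as well, the split was 27 above to 7 below and the median 0.11. The paired fit gave the same split. Without control replicate 2 alone the median was 0.23, and without RhoA het replicate 7 alone it was 0.25. Every fitted fold lay within 1.5-fold in either direction, but the precision was limited: the standard errors ran from 0.15 to 0.49 on the log2 scale, and the 95% interval stayed within 1.5-fold for 6 genes and within 2-fold (1 on the log2 scale) for 30. All 34 intervals held 0.

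**Figure D2:**
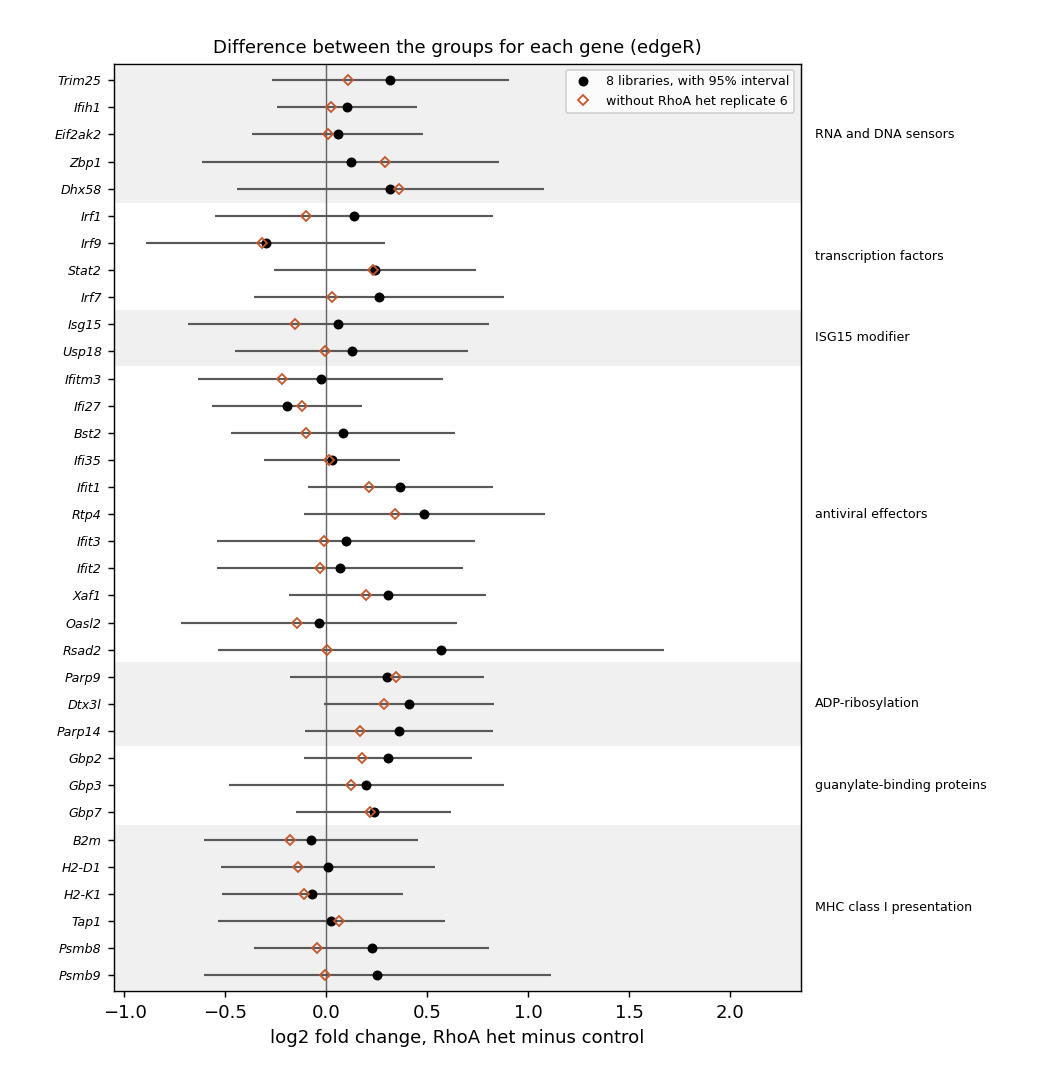
Log2 fold change (RhoA het minus control) of the 34 genes from the edgeR fit over 8 libraries (black, with 95% interval) and without RhoA het replicate 6 (open orange diamonds). Every interval crosses 0, and for Rsad2, Irf7 and Psmb8 the diamond lies well to the left of the black point.

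Among the sensors, all 5 fitted differences were above 0, with a median of 0.12, and none passed the test. Trim25, the ubiquitin ligase that activates the RNA sensor RIG-I (ENSMUSG00000000275.17, mm39 chr11:88890202-88911119), stood at 26.0, 27.0, 22.7 and 16.3 CPM in control replicates 2, 5, 7 and 8 and at 32, 40.3, 17.1 and 25.3 CPM in RhoA het replicates 5, 6, 7 and 8. RhoA het replicate 6 was the highest and control replicate 8 the lowest, and RhoA het replicates 7 and 8 fell within the control range. RhoA het minus control came to 0.32 ± 0.26 on the log2 scale (SE; edgeR unadjusted p = 0.256, adjusted p = 0.9998; two-sided exact permutation p = 0.429), and without RhoA het replicate 6 it was 0.11. Ifih1, the gene of the RNA sensor MDA5, was the steadiest of the group at 10.8 to 16.6 TPM, with a log2 fold change of 0.10 ± 0.16 (SE), or 0.02 without RhoA het replicate 6. Eif2ak2, the gene of the kinase PKR that halts translation on binding double-stranded RNA, spanned 4.10 to 7.87 TPM, and its difference of 0.06 was below 0 with a replicate block and in leave-one-out fits. Dhx58, the gene of the helicase LGP2, and Zbp1, a sensor of Z-form nucleic acid, lay at 0.667 to 1.83 and 1.03 to 2.13 TPM, with log2 fold changes of 0.32 ± 0.34 and 0.12 ± 0.33 (SE), of which the second was below 0 in a leave-one-out fit. Leaving out RhoA het replicate 6 gave 0.36 and 0.29.

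The transcription factors pointed in both directions, 3 above 0 and 1 below, and none passed the test. Irf1, a factor of both interferon responses with the GAS letters shown above, was the most abundant (ENSMUSG00000018899.18, mm39 chr11:53660841-53669200). Its level was 155, 127, 266 and 173 CPM in control replicates 2, 5, 7 and 8 and 112, 287, 165 and 228 CPM in RhoA het replicates 5, 6, 7 and 8. The 2 highest libraries, RhoA het replicate 6 and control replicate 7, came from different groups, and the RhoA het range enclosed all controls. The log2 fold change of 0.14 ± 0.31 (SE; edgeR unadjusted p = 0.67, adjusted p = 0.9998) was -0.10 without RhoA het replicate 6. The deposited counts ignored strand, and 795 exon bases of Irf1 are also exon bases of Gm17334 on the opposite strand, so reads there cannot be told apart.

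Irf9, the DNA-binding subunit of the complex that binds the ISRE, had the lowest fitted difference of the 34 genes (ENSMUSG00000002325.16, mm39 chr14:55841028-55847487). It stood at 64.3, 24.8, 41.7 and 42.6 CPM in control replicates 2, 5, 7 and 8 and at 25.4, 36.2, 39.9 and 39.1 CPM in RhoA het replicates 5, 6, 7 and 8. Control replicate 2 was the highest and control replicate 5 the lowest of all 8, so the controls enclosed every RhoA het value. Its log2 fold change was -0.30 ± 0.27 (SE; edgeR unadjusted p = 0.283, adjusted p = 0.9998) and ranged from -0.51 to -0.05 when single libraries were left out, with -0.32 without RhoA het replicate 6. Stat2, the partner of Irf9, had a log2 fold change of 0.24 ± 0.22 (SE), or 0.23 without RhoA het replicate 6. That of Stat2 ranged from 0.06 to 0.37 when single libraries were left out. Irf7, the factor that amplifies interferon production, had one of 0.26 ± 0.28 (SE), or 0.03 without RhoA het replicate 6.

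The ISG15 system was nearly level between the groups. Isg15, a ubiquitin-like protein that is attached to other proteins (ENSMUSG00000035692.8, mm39 chr4:156283912-156285253), stood at 34.2, 12.6, 16.0 and 23.2 CPM in control replicates 2, 5, 7 and 8 and at 19.9, 31.5, 14.2 and 24.0 CPM in RhoA het replicates 5, 6, 7 and 8. Control replicate 2 and RhoA het replicate 6 were the 2 highest libraries, and the RhoA het values all fell inside the control range. Between the groups Isg15 differed by 0.06 ± 0.33 in log2 (SE; edgeR unadjusted p = 0.862, adjusted p = 0.9998) and was -0.15 without RhoA het replicate 6. Usp18, the protease that removes ISG15 and restrains the type I receptor (ENSMUSG00000030107.11, mm39 chr6:121222865-121247876), lay at 4.91, 3.58, 2.70 and 3.81 CPM in the controls and at 4.37, 5.13, 3.18 and 3.65 CPM in the RhoA het libraries, in the same order of replicates. These ranges overlapped as well, and the log2 fold change was 0.13 ± 0.26 (SE; edgeR unadjusted p = 0.636, adjusted p = 0.9998), or -0.0052 without RhoA het replicate 6.

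The antiviral effectors split into 8 above 0 and 3 below, with a median log2 fold change of 0.08. Without RhoA het replicate 6 the split was 5 above to 6 below. With control replicate 2 left out as well, it was 7 above to 4 below. Ifitm3, the most abundant gene of the whole list (ENSMUSG00000025492.7, mm39 chr7:140589499-140590683), stood at 1190, 499, 678 and 767 CPM in control replicates 2, 5, 7 and 8 and at 669, 1051, 622 and 732 CPM in RhoA het replicates 5, 6, 7 and 8. Its 2 highest libraries were again control replicate 2 and RhoA het replicate 6, and the other 6 spanned 499 to 767 CPM with the groups interleaved. Its fitted log2 difference of -0.03 ± 0.27 (SE; edgeR unadjusted p = 0.919, adjusted p = 0.9998) was above 0 on the TPM scale (0.09) and with the replicate block (0.05), and was -0.22 without RhoA het replicate 6.

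Rtp4, a chaperone-like protein induced strongly by type I interferon (ENSMUSG00000033355.7, mm39 chr16:23339041-23432972), had the smallest p of the effectors. It stood at 9.88, 7.62, 5.88 and 7.80 CPM in control replicates 2, 5, 7 and 8 and at 11.5, 14, 6.28 and 11.9 CPM in RhoA het replicates 5, 6, 7 and 8. A set of 3 RhoA het libraries lay above all controls, and RhoA het replicate 7 lay below 3 of the 4 controls. For Rtp4 the fit gave a log2 fold change of 0.49 ± 0.27 (SE, with -0.11 to 1.08 as its 95% interval; edgeR unadjusted p = 0.0989, adjusted p = 0.9998; two-sided exact permutation p = 0.229), and it was 0.34 without RhoA het replicate 6. In Rtp4, 13.9% of exon bases overlap Gm45338 on the same strand.

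The other effectors showed the same mixture. Rsad2, the gene of viperin, which makes a chain-terminating nucleotide, had the widest interval of the 34 genes: its log2 fold change of 0.57 ± 0.49 (SE) was 0.00090 without RhoA het replicate 6, where it reached 7.72 TPM against a lowest value of 1.65 TPM. Ifit1, which binds foreign RNA caps, had a log2 fold change of 0.37 ± 0.20 (SE; edgeR unadjusted p = 0.104, adjusted p = 0.9998), which was 0.21 without RhoA het replicate 6, while its relatives Ifit2 and Ifit3 were at 0.07 and 0.10 and were at -0.03 and -0.01 without it. Xaf1, a pro-apoptotic factor, was at 0.30 ± 0.22 (SE), or 0.20 without that library. Ifi27, a small mitochondrial protein, was at -0.19 ± 0.17 (SE), was lowest in RhoA het replicate 6 and was at -0.12 without it. Bst2, the tether that holds budding virus at the surface, Ifi35 and Oasl2 lay at 0.08, 0.03 and -0.04, and Oasl2 was above 0 on the TPM scale (0.04) and with the replicate block (0.01). These 3 were, without RhoA het replicate 6, at -0.10, 0.02 and -0.15. Reads of the IFIT and guanylate-binding protein genes, of Ifi27 and of the class I heavy chains can be shared with near-identical copies, which makes their counts less certain.

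The ADP-ribosylation genes gave the smallest p of the list. Dtx3l, a ubiquitin ligase that works as a complex with PARP9 (ENSMUSG00000049502.18, mm39 chr16:35746881-35759521), stood at 9.09, 12.4, 13.4 and 10.2 CPM in control replicates 2, 5, 7 and 8 and at 15.1, 18.6, 13.2 and 13.1 CPM in RhoA het replicates 5, 6, 7 and 8. Control replicate 7 lay inside the RhoA het range, and the other 3 controls lay below it. For Dtx3l the fit gave 0.41 ± 0.19 on the log2 scale (SE, with -0.01 to 0.83 as its 95% interval; edgeR unadjusted p = 0.056, adjusted p = 0.9998; two-sided exact permutation p = 0.0857, where the design allows no p below 0.0286). It was 0.29 without RhoA het replicate 6 and 0.18 with the replicate block.

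Parp9, its partner, which lies head to head with Dtx3l (ENSMUSG00000022906.16, mm39 chr16:35758840-35792975), stood at 16.9, 17.6, 16.8 and 19.1 CPM in control replicates 2, 5, 7 and 8 and at 17.4, 19.6, 17.1 and 32.6 CPM in RhoA het replicates 5, 6, 7 and 8. The 7 libraries other than RhoA het replicate 8 lay within 16.8 to 19.6 CPM, and RhoA het replicate 8 lay far above them. The log2 fold change of 0.30 ± 0.22 (SE; edgeR unadjusted p = 0.194, adjusted p = 0.9998) was 0.03 without that library and 0.34 without RhoA het replicate 6. The 2 genes share 458 exon bases on opposite strands, where unstranded reads cannot be assigned to one of them. Parp14, a mono-ADP-ribosyltransferase, had a log2 fold change of 0.36 ± 0.21 (SE), and 0.17 without RhoA het replicate 6.

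The 3 guanylate-binding proteins, GTPases that coat the vacuoles of intracellular pathogens and whose promoters all hold ISRE letters, had fitted differences of 0.31, 0.20 and 0.23. Gbp2 (ENSMUSG00000028270.13, mm39 chr3:142326363-142343769) stood at 145, 128, 89.8 and 112 CPM in control replicates 2, 5, 7 and 8 and at 140, 184, 114 and 150 CPM in RhoA het replicates 5, 6, 7 and 8. RhoA het replicate 6 was the highest, control replicate 7 the lowest, and the groups overlapped between 114 and 145 CPM. In the fit over 8 libraries its log2 fold change was 0.31 ± 0.19 (SE; edgeR unadjusted p = 0.133, adjusted p = 0.9998) and stayed between 0.18 and 0.41 when any single library was left out. Gbp3 was the most variable of the 3, at 11.4 to 30.8 TPM, and its difference was below 0 in a leave-one-out fit. Gbp7 spanned 11 to 19.6 TPM. Without RhoA het replicate 6, Gbp2, Gbp3 and Gbp7 were at 0.18, 0.12 and 0.22.

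The class I presentation genes lay on both sides of 0, from -0.08 (B2m) to 0.25 (Psmb9), 4 above and 2 below with a median log2 fold change of 0.02. Without RhoA het replicate 6 the split was 1 above to 5 below with a median of -0.08. With control replicate 2 left out as well, all 6 lay above 0 with a median of 0.08. The paired fit also placed all 6 above 0. B2m (ENSMUSG00000060802.9, mm39 chr2:121978167-121983564), whose ISRE letters are shown above, stood at 1069, 496, 595 and 687 CPM in control replicates 2, 5, 7 and 8 and at 672, 815, 550 and 665 CPM in RhoA het replicates 5, 6, 7 and 8. Control replicate 2 was the highest, control replicate 5 the lowest, and all RhoA het values lay between them. The log2 fold change was -0.08 ± 0.24 (SE; edgeR unadjusted p = 0.757, adjusted p = 0.9998) and was above 0 on the TPM scale (0.05) and with the replicate block (0.07), and was -0.18 without RhoA het replicate 6. The heavy chains had the same order of libraries at the ends: H2-D1 and H2-K1 were highest in control replicate 2 and lowest in control replicate 5, with log2 fold changes of 0.01 and -0.07, of which the second was above 0 on the TPM scale (0.04) and with the replicate block (0.06). The heavy chains were at -0.14 and -0.11 without RhoA het replicate 6.

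Psmb8, a catalytic subunit of the immunoproteasome that cuts peptides for class I (ENSMUSG00000024338.16, mm39 chr17:34416695-34420428), stood at 16.1, 10.8, 9.93 and 11.3 CPM in control replicates 2, 5, 7 and 8 and at 12.4, 21.2, 9.91 and 12.7 CPM in RhoA het replicates 5, 6, 7 and 8. RhoA het replicate 6 and control replicate 2 stood above the other 6 libraries, which spanned 9.91 to 12.7 CPM. The log2 fold change of 0.22 ± 0.26 (SE, edgeR unadjusted p = 0.408, adjusted p = 0.9998) was -0.05 without RhoA het replicate 6. Psmb9, a second catalytic subunit, was at 0.25 ± 0.38 (SE) and -0.01 without that library. Tap1, a subunit of the peptide transporter, was at 0.03 ± 0.25 (SE), or 0.06 without it.

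The spread over the 8 libraries was described next. The highest library exceeded the lowest by 1.41-fold (Ifih1) to 5.04-fold (Rsad2) in CPM, with a median of 2.15-fold, against 1.94-fold over all tested genes with over 3 counts in every library. RhoA het replicate 6 was the highest of the 8 libraries for 15 of the 34 genes (44.1%, against 13.4% of all genes), and control replicate 2 for 8 (23.5%, against 15.5%). Within the groups, control replicate 2 was the highest control for 20 genes (58.8%, against 25.4%) and RhoA het replicate 6 the highest RhoA het library for 22 (64.7%, against 26.3%), and both held for 15 (44.1%, against 9.85%). The median deviation of the 34 genes from their mean over the 8 libraries was 0.39 in RhoA het replicate 6 and 0.23 in control replicate 2, and it lay between -0.26 and 0.17 in the other 6. These are the libraries with the Y-linked counts described above, and whether sex has a part in the levels was not tested.

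**Figure D3:**
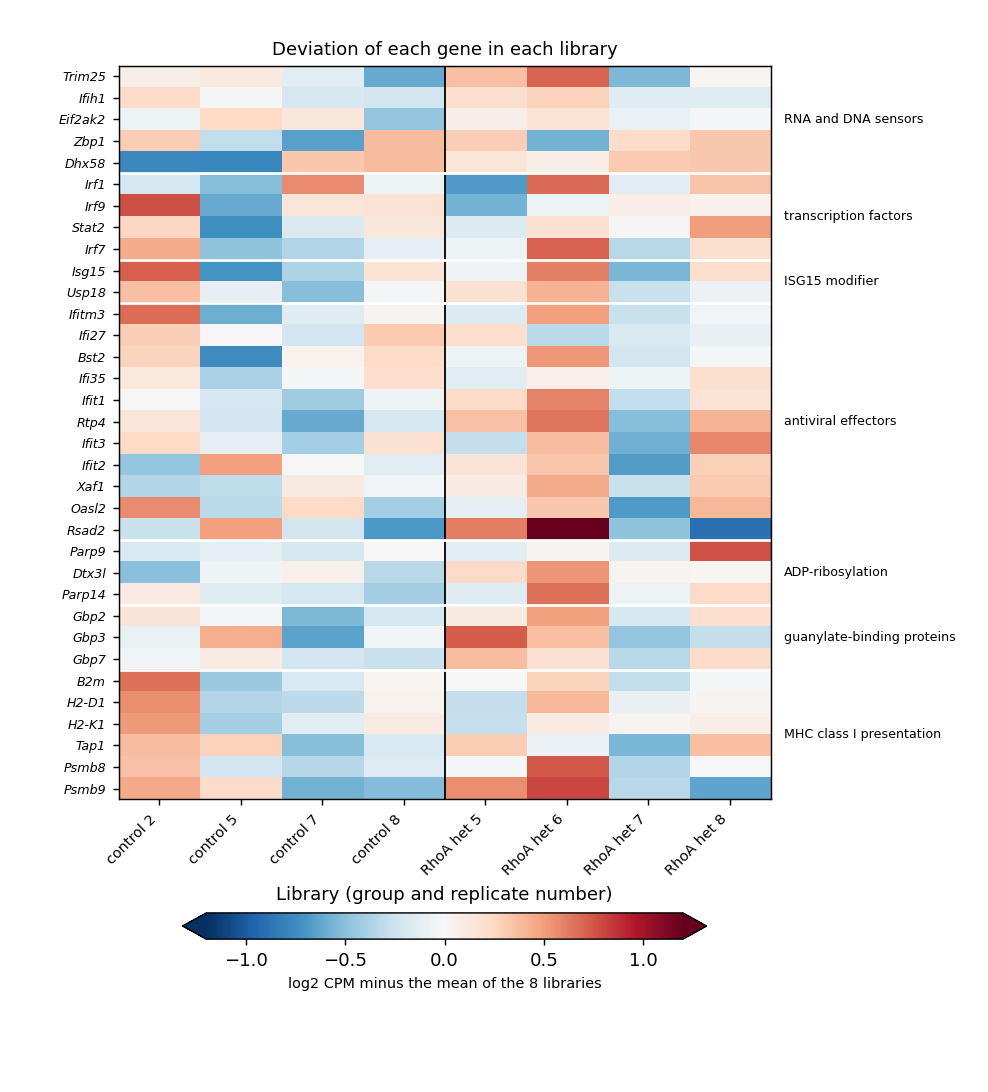
Log2 CPM of each gene in each library minus its mean over the 8 libraries (red above, blue below; the vertical line separates controls from RhoA het). The columns of control replicate 2 and RhoA het replicate 6 are mostly red, and those of control replicates 5 and 7 and RhoA het replicate 7 mostly blue.

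Replicates 5, 7 and 8 occur in both groups and were treated as 3 pairs, which leaves out both libraries with Y-linked counts. With the replicate block over these 6 libraries, 0 of the 34 genes had an edgeR adjusted p under 0.05, against 0.0127% of all genes, and the lowest adjusted p was 0.835. An unadjusted p under 0.05 was reached by 2 of the 34 (5.88%), near the 5.26% of all genes: Stat2 with a log2 fold change of 0.35 ± 0.13 (SE; edgeR unadjusted p = 0.0225, adjusted p = 0.835) and Gbp2 with 0.27 ± 0.11 (SE; edgeR unadjusted p = 0.0364, adjusted p = 0.917). In the same paired fit, markers of cell types moved too: 7 of the 8 myofibre markers tested were lower in RhoA het at an unadjusted p under 0.05 (median -1.26), with Acta1 and Atp2a1 at edgeR adjusted p = 0.0275 and 0.0349, and 3 of 6 fibro-adipogenic markers were higher at an unadjusted p under 0.05 (median 0.33). Pax7 was at -0.65 ± 0.12 (SE; edgeR unadjusted p = 0.000181, adjusted p = 0.143). Of the 8 stem cell markers, 3 were higher and 5 lower (median -0.01), and only Pax7 had an edgeR unadjusted p under 0.05. The part of these markers in the paired values of the 34 genes was not tested. The median over the 34 was 0.10 with the block and 0.11 for the same 6 libraries without it. By pair, RhoA het was above control for 28 genes in pair 5 (82.4%, against 47.9% of all genes). It was above control for 15 in pair 7 (44.1%, against 48.7%) and for 20 in pair 8 (58.8%, against 53.8%). It was above control in all 3 pairs for 6 genes, Ifih1, Stat2, Irf7, Ifit1, Rtp4 and Gbp2 (17.6%, against 13.6% of all genes), and below in all 3 for none (against 12.5%).

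The fitted differences were also set beside the promoter letters. The 13 genes with an ISRE match had a median log2 fold change of 0.10, and the 14 genes with a window but no match also had one of 0.10. Without RhoA het replicate 6 the medians were 0.01 and -0.02. These are descriptions of the windows on hand, and 7 of the 34 genes had none.

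Upstream of the listed genes, the interferon genes themselves were at or near 0. Of 10 ligand genes, 7 were listed at 0 in all 8 libraries, and the 10 together gave 0 to 3 counts per library, where 3 counts, the limit that a count of 0 allows, correspond to 0.117 to 0.157 CPM. None could be tested. Of 13 receptor and JAK-STAT genes, 12 were tested and 0 called, 9 above 0 and 3 below, with a median of 0.05, and 6 above and 6 below both without RhoA het replicate 6 (median -0.02) and with the block (median 0.0068). The smallest p was that of the type II receptor chain Ifngr1, with a log2 fold change of 0.26 ± 0.19 (SE; edgeR unadjusted p = 0.215, adjusted p = 0.9998). Of 13 genes of upstream sensing, 12 were tested and 0 called, 7 above and 5 below, with a median of 0.03. The direction of this list turned in the alternatives: it was 4 above and 8 below (median -0.07) without RhoA het replicate 6, 1 above and 11 below (median -0.15) with the block, and 4 above and 8 below (median -0.05) with the replicate number as a random term. The smallest p was that of the adaptor Sting1, at 0.30 ± 0.25 (SE; edgeR unadjusted p = 0.255, adjusted p = 0.9998).

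Other interferon-stimulated genes outside the list were also not called. Of 40, 34 were tested and 0 called, 23 above 0 and 11 below with a median of 0.19, and 16 above and 18 below with a median of -0.02 without RhoA het replicate 6. With the block, 33 were tested, 25 above and 8 below with a median of 0.13. Herc6, the mouse ligase of ISG15, had the smallest p, with 11.4, 11.5, 13.8 and 11.6 CPM in control replicates 2, 5, 7 and 8 and 12.2, 17.0, 16.4 and 14 CPM in RhoA het replicates 5, 6, 7 and 8. Its log2 fold change was 0.31 ± 0.16 (SE; edgeR unadjusted p = 0.0888, adjusted p = 0.9998), and control replicate 7 lay above RhoA het replicate 5. Of 17 other class I genes, 16 were tested and 0 called, 9 above and 7 below with a median of 0.02, and the split was 5 to 11 (median -0.05) without RhoA het replicate 6 and 6 to 10 (median -0.02) with the block. The smallest p was that of Nlrc5, the transactivator of class I genes, at 0.65 ± 0.38 (SE; edgeR unadjusted p = 0.119, adjusted p = 0.9998) on levels of 0.986 to 4.04 CPM.

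Genes of MHC class II, which presenting cells of the immune system use, were all low and followed the same libraries. The 7 genes summed to 139 TPM in RhoA het replicate 6, to 51.5 TPM in control replicate 2 and to 7.39 to 23.1 TPM in the other 6. None was called; 6 lay above 0 and 1 below with a median of 0.34, and 1 above and 6 below with a median of -0.48 without RhoA het replicate 6. With the block, 6 were tested, 5 above and 1 below with a median of 0.57. The smallest p was that of H2-Aa, whose log2 fold change was 1.26 ± 0.96 (SE; edgeR unadjusted p = 0.22, adjusted p = 0.9998) with that library and -0.34 without it.

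Some markers of other cell types were also high in RhoA het replicate 6, and others were not. The 10 endothelial markers summed to 460 TPM there and to 83.5 to 109 TPM in the other RhoA het libraries, against 42.3 to 122 TPM in the controls, with the lowest sum in control replicate 2. All 10 were detected in every library, and Pecam1 stood at 67.8 TPM in RhoA het replicate 6 and at 1.05 TPM in control replicate 2. The 11 immune markers summed to 308 to 828 TPM in the controls and to 233 to 816 TPM in the RhoA het libraries. The myeloid gene Lyz2 made up most of this sum except in RhoA het replicate 6, where it was at its lowest (209 TPM) and S100a8, a neutrophil gene, was at 229 TPM against at most 51.7 TPM elsewhere. Of the 11, 5 passed the filter. Ptprc, a gene of all leukocytes, was at 0.742 TPM in RhoA het replicate 6 and at most 0.0892 TPM elsewhere. Among those that did not pass, Tyrobp was at 12.5 TPM there (at most 1.28 elsewhere), Fcer1g at 9.70 (at most 1.64) and Csf1r at 2.61 (at most 0.424). Adgre1, Itgam and Cd3e were also highest there, on 15, 14 and 3 counts. Itgam, with 17 counts in all, was at 0 in the controls and in RhoA het replicate 5. Cd68 and Cd79a were within the range of the other libraries in RhoA het replicate 6. The 5 erythroid markers summed to 1284 TPM in RhoA het replicate 6, to 12.1 to 111 TPM in the other RhoA het libraries and to 8.68 to 623 TPM in the controls. The 6 fibro-adipogenic markers were high throughout, at 3601 to 8276 TPM. The part of these cells in the level of the interferon genes was not tested, and in bulk RNA more cells of a type cannot be told apart from more RNA per cell.

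**Figure D4:**
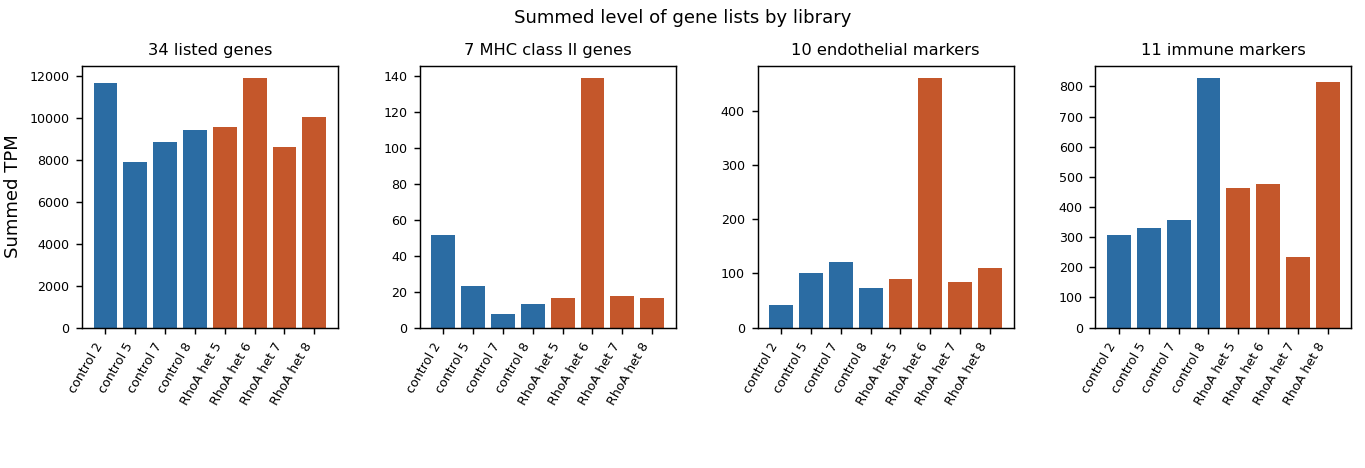
Summed TPM (linear axis from 0) of the 34 genes, 7 MHC class II genes, 10 endothelial markers and 11 immune markers in each library (blue, control; orange, RhoA het). The 34 genes and the class II genes are highest in RhoA het replicate 6 and control replicate 2, while the endothelial markers are highest in RhoA het replicate 6 and lowest in control replicate 2.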

How the data were processed

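The series holds RNA-seq of 8 mouse muscle stem cell libraries. The deposited count table holds whole-number read counts per gene made by the authors with featureCounts 1.6.4 against GENCODE M34 on mm39, counted as read pairs without strand, per the file headers; the submitters' processing notes also name STAR, cutadapt and FastQC. The deposited TPM table was made by the authors, and TPM recomputed here from the counts and exon lengths matched it. No column of per-sample values was left unused (0), and 2 libraries named in the counting command were not analysed here. Symbols came from a GENCODE release 21 table (51884 of 57180 genes matched).

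Counts were tested with edgeR 4.0.16 (quasi-likelihood F test, filterByExpr, TMM) in R 4.3.3 over all 15660 genes that passed the filter, with Benjamini-Hochberg adjustment and a threshold of 0.05; 41520 genes were removed. Alternatives used DESeq2 1.42.0, limma 3.58.1 on log2(TPM + 1) and log2(TPM + 0.1), other filters and scaling, and each library left out. Single genes were also tested by an exact permutation test of log2 CPM (prior count 2) over 70 assignments. Depth was 19138763 to 25606342 counts per library. Limits from a count of 0 cover counting error only, while the intervals of the edgeR fit also include the spread between libraries.

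Replicate numbers 5, 7 and 8 occur in both groups, and the labels do not say what they stand for. Deviations from the group means correlated at 0.544, 0.231 and 0.488 within the 3 same-numbered pairs, so they were treated as pairs in the fit with a replicate block.

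Values in every library are given for the gene with the highest mean TPM and the gene with the smallest unadjusted p in each role group; no gene qualified by passing the threshold or by groups that do not overlap. For other lists the gene with the smallest p is named. Stat2 in the paired fit, the genes on 1 side of 0 in all 3 pairs, and single markers were chosen after their values were seen. The genes, lists and tests were chosen with earlier results of these data known. Promoter windows are from RefSeq on GRCm38.p6 and no coordinates were converted; gene coordinates are those of the count table on mm39.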

Additional observations from a re-analysis of the deposited data

Results flagged for a closer look

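In the RhoA het group, 2 of the 34 genes had a library far from the other 3 by Dixon's ratio of gap to range, above its 95% critical value for 4 samples. Zbp1 was at 1.19 CPM in RhoA het replicate 6 and at 2.06 to 2.21 CPM in the other RhoA het libraries (ratio 0.855). Parp9 was at 32.6 CPM in RhoA het replicate 8 and at 17.1 to 19.6 CPM in the others (ratio 0.836). A total of 68 groups of 4 were examined, of which chance alone would pick about 3.4, or 1 in 20.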

How the results depend on the processing

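No gene of the 34 was called under any of 17 alternatives, whose lowest adjusted p was 0.835 (replicate block, edgeR), and the median log2 fold change stayed above 0, from 0.0109 to 0.25 with single libraries left out and from 0.098 to 0.207 in the rest. The sign of the fitted difference was the same throughout for 15 genes and changed in at least 1 alternative for 19; the cause was not tested. With the replicate block over 6 libraries (3 pairs), the log2 fold changes that changed sign were Eif2ak2 -0.00694, Irf1 -0.18, Ifit2 -0.212, Ifit3 -0.00321, Rsad2 -0.127, Oasl2 0.00763, Ifitm3 0.0519, B2m 0.0682 and H2-K1 0.0636. In the same 6 libraries with no replicate block they were Eif2ak2 -0.0301, Irf1 -0.192, Ifit2 -0.18, Rsad2 -0.0649, Oasl2 0.0383, Bst2 -0.0224, Ifitm3 0.0318, B2m 0.0614 and H2-K1 0.0553. Taking the replicate number as a random effect over all 8 libraries gave Ifit2 -0.0585, Ifitm3 0.0369, B2m 0.0191 and H2-K1 0.0118. On log2(TPM + 1) they were Oasl2 0.0361, Ifitm3 0.0945, B2m 0.0534 and H2-K1 0.0445, and on log2(TPM + 0.1) Oasl2 0.041, Ifitm3 0.0945, B2m 0.0534 and H2-K1 0.0446. With no filter on low counts H2-D1 was at -0.000594. With single libraries left out, the ranges of the genes that changed sign were B2m -0.227 to 0.187, Bst2 -0.113 to 0.182, Eif2ak2 -0.0699 to 0.14, Gbp3 -0.0567 to 0.385, H2-D1 -0.139 to 0.235, H2-K1 -0.211 to 0.118, Ifi35 -0.0936 to 0.103, Ifit2 -0.0671 to 0.256, Ifit3 -0.108 to 0.257, Ifitm3 -0.219 to 0.244, Irf1 -0.101 to 0.385, Isg15 -0.153 to 0.371, Oasl2 -0.182 to 0.164, Psmb8 -0.0462 to 0.393, Psmb9 -0.00766 to 0.46, Tap1 -0.12 to 0.172, Usp18 -0.00559 to 0.281 and Zbp1 -0.048 to 0.289. Over all genes, 0 were called in the 8-library fit and 2 with the block. With 4 libraries a group, differences that lie inside the 95% intervals could not be resolved, and 7 genes had fewer than 100 counts in at least 1 library.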
